A study of Homo sapiens with 12 samples.

Results

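The genes described here were 33 genes of cholesterol and fatty acid synthesis, taken by symbol from a list of names. The list held 19 enzymes of sterol synthesis and of the steps that feed it, 6 genes that control lipid synthesis or move cholesterol, and 8 genes of fatty acid synthesis and desaturation. All 33 were among the 26485 genes of the count table, and all 33 were among the 14732 genes with enough reads to be tested. Their lowest count in any sample was 126, so no member entered the test through 1 line alone. RNA was sequenced from spheroids of 3 lines made from DU145, an established line of human prostate cancer cells that originates from a metastasis in the central nervous system. In all 3 lines the gene of the α2 integrin subunit, ITGA2, had been edited with Crispr/Cas9. DU145KO (n = 4) received no further construct, DU145KO+vector (n = 4) was stably transfected with the empty pAWneo2 vector and DU145KO+α2 (n = 4) with the same vector holding an α2 integrin cDNA. The spheroids, of 8000 cells each, were kept for 72 hours in medium without serum, and the submitters call the 4 samples of a line biological replicates.

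Each transfected line was 1 line, kept under geneticin, while the methods give no geneticin for DU145KO. An effect of the α2 integrin cDNA and any other difference between the lines therefore cannot be told apart, and the comparison with DU145KO also differs in the transfection. The question that the lines address is what changes when α2β1, a receptor for collagen, is returned to cells that lack it.

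Cells make cholesterol from acetyl-CoA by way of mevalonate, farnesyl diphosphate, squalene and lanosterol, and fatty acids from acetyl-CoA by way of malonyl-CoA and palmitate. When the sterol content of the endoplasmic reticulum falls, the protein SCAP takes the SREBP transcription factors, made from SREBF1 and SREBF2, to the Golgi, where they are cut and freed to act in the nucleus, and INSIG1 holds them back when sterol is plentiful. SREBP-2 acts mainly on the genes of sterol synthesis and SREBP-1 mainly on those of fatty acids, and prostate cancer cells are known to rely on making lipids of both kinds.

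The total count of a sample was between 13948734 and 19988111, and the 33 genes took 0.336% to 0.450% of it. A count of 3 stood for 0.150 to 0.215 CPM (counts scaled to a common library size and normalized between samples by TMM), and this floor covers counting error only. ITGA2 was counted at 15.7 to 25.8 CPM in DU145KO, at 13.0 to 20.2 CPM in DU145KO+vector and at 259 to 332 CPM in DU145KO+α2. Its log2 fold change in DU145KO+α2 compared to DU145KO+vector was 4.11 (SE 0.16, adjusted p = 3.15e-09 in edgeR's quasi-likelihood test). The epithelial markers EPCAM, CDH1, KRT8, KRT18 and KRT19 were all counted in every sample, with a sum of 1211 to 1584 CPM in DU145KO, 1142 to 1387 CPM in DU145KO+vector and 860 to 1154 CPM in DU145KO+α2. The lower sum of the 5 markers in DU145KO+α2 accompanies every comparison of that line below, and its part in the results was not tested. Of the fibroblast markers, LUM was at 0 in all samples, COL1A2 had at most 2 counts and COL1A1 reached 12.1 CPM. The leukocyte markers PTPRC and CD3E had at most 1 count, although CD68 (47.8 to 81.7 CPM) and CD79A (59.5 to 265 CPM) of the same list were counted in all samples. The 4 endothelial markers summed to at most 1.48 CPM.

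In DU145KO+α2 compared to DU145KO+vector, 6 of the 33 genes were up regulated and 2 were down regulated at an adjusted p below 0.05 in edgeR's quasi-likelihood test, adjusted over all genes tested. The up regulated genes were HMGCS1, FDFT1, TM7SF2, SC5D, SREBF2 and FADS1, and the down regulated genes were AACS and ELOVL6. Of all genes tested, 5.96% were called higher and 5.95% lower in this comparison. The log2 fold change was positive for 26 and negative for 7 of the 33 genes, with a median of 0.18 where the median of all genes was -0.01. DESeq2 called 11 members higher and 2 lower, against 7.07% and 6.80% of all genes. No member passed a fold change of 2 together with the test, a rule met by 2.21% of all genes.

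The replicate numbers were taken to pair the samples of the lines. The fit with the replicate number as a block called 13 of the 33 genes higher and 2 lower, where it called 12.9% of all genes higher and 13.7% lower. The block added MVK, FDPS, SQLE, CYP51A1, MSMO1, DHCR7 and FADS2 to the genes called higher. For 8 members all 4 samples of DU145KO+α2 lay above all 4 of DU145KO+vector, and for 2 members they lay below. In all genes tested such a separation was seen for 8.40% upwards and for 8.80% downwards. The 8 separated genes were FDFT1, CYP51A1, TM7SF2, SC5D, SREBF2, SCD, FADS1 and FADS2, and the 2 were AACS and ELOVL6.

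The comparison of DU145KO+α2 with DU145KO used the same samples of DU145KO+α2. Here 4 of the 33 genes were called higher (HMGCS1, FDFT1, HSD17B7 and SREBF2) and none lower, against 3.09% and 5.08% of all genes. With no adjustment, 11 members were higher and 1 was lower at a p below 0.05 in edgeR, against 9.30% and 12.1% of all genes. DESeq2 called 7 members higher and 0 lower, against 4.12% and 5.89% of all genes. With the replicate block the counts were 11 higher and 1 lower, against 9.93% and 12.4% of all genes. The block added MVK, FDPS, TM7SF2, MSMO1, ACAT2, FADS1 and FADS2 upwards and ELOVL6 downwards. The median log2 fold change of the members was 0.17, and none passed a fold change of 2, as 2.10% of all genes did.

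Between the lines without α2 integrin, DU145KO+vector compared to DU145KO, 0 of the 33 genes were called higher and 2 (FDFT1 and SC5D) lower, against 0.496% and 1.84% of all genes. An unadjusted p below 0.05 in edgeR was reached by 0 members upwards and by 2 downwards, against 6.13% and 8.90% of all genes, and DESeq2 also called 0 and 2, against 1.10% and 2.89%. The block gave the same 0 and 2, while its share of all genes rose to 5.59% higher and 7.85% lower. The median log2 fold change was -0.03, and no member passed a fold change of 2, as 0.835% of all genes did.

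**Figure D1:**
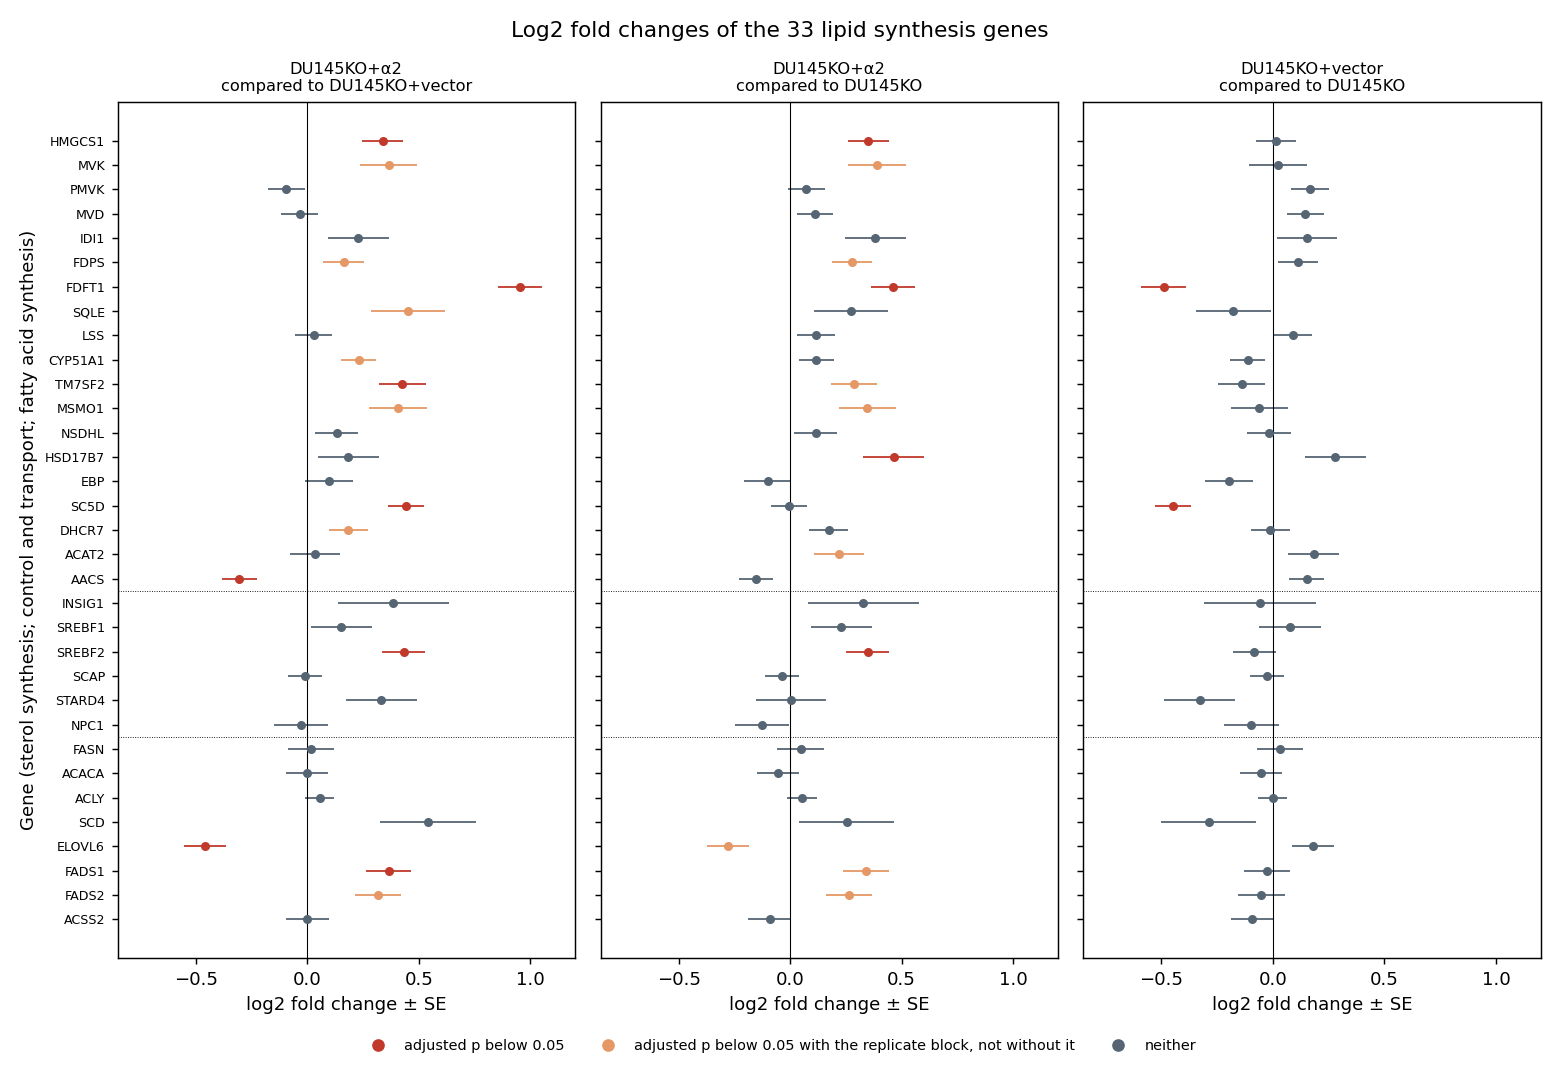
Log2 fold change (horizontal axis, point) with its SE (bar) of each of the 33 genes in the 3 comparisons of the lines, in rows grouped by role and separated by dotted lines. Red marks an adjusted p below 0.05 in edgeR's quasi-likelihood test, orange an adjusted p below 0.05 with the replicate block and not without it, and grey neither. FDFT1 is at 0.95 in the left panel and at -0.49 in the right panel, and most points of the left and middle panels lie to the right of 0.

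The stretches of 150 bases just before the transcription start of the genes called between DU145KO+α2 and DU145KO+vector are printed here, since these genes moved in the same comparison. They were taken from RefSeq promoters on GRCh38.p14, where 29 of the 33 genes matched by symbol and ACAT2, FASN, FDFT1 and SQLE did not. The stretches are HMGCS1 at chr5:43313413-43313562 (minus strand), TM7SF2 at chr11:65111722-65111871 (plus strand), SC5D at chr11:121292621-121292770 (plus strand), SREBF2 at chr22:41832955-41833104 (plus strand), FADS1 at chr11:61817004-61817153 (minus strand), AACS at chr12:125065285-125065434 (plus strand) and ELOVL6 at chr4:110198616-110198765 (minus strand). Capitals mark matches, on either strand, to the sterol element TCACNCCAC bound by SREBPs, to the CCAAT box bound by NF-Y (ATTGG when read from the other strand) or to the E-box CACGTG.
HMGCS1: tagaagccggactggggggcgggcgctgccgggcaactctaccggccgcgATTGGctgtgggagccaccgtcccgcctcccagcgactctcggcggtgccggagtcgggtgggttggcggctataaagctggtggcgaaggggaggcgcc
TM7SF2: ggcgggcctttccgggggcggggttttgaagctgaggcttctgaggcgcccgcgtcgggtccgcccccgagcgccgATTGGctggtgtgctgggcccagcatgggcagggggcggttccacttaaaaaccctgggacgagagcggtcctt
SC5D: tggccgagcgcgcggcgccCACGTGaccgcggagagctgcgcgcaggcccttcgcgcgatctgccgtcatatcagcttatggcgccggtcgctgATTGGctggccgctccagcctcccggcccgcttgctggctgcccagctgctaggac
SREBF2: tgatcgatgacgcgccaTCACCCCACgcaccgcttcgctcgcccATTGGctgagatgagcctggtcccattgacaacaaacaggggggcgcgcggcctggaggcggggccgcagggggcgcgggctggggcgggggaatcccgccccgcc
FADS1: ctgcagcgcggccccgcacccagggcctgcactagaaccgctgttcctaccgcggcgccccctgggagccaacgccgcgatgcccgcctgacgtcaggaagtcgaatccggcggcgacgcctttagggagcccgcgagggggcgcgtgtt
AACS: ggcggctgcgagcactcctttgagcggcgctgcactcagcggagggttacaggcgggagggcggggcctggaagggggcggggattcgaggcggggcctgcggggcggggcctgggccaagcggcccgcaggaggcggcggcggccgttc
ELOVL6: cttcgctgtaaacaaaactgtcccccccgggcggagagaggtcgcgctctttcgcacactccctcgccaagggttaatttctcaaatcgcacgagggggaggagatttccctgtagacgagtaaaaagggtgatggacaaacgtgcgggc

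In these stretches HMGCS1, TM7SF2, SC5D and SREBF2 held 1 CCAAT box each, in the orientation ATTGG, and FADS1, AACS and ELOVL6 held none of the 3 motifs. SREBF2 was the one stretch with the sterol element, at position -133 from the start, and SC5D the one with the E-box, at position -131. Over the window from 250 bases before to 50 after the start, a CCAAT box was found for 18 of the 29 matched genes (62.1%) and for 35.7% of 27305 promoters, 1 for each gene. The sterol element was found for 1 of the 29 genes and for 1.15% of all promoters, and the E-box for 4 of the 29 (INSIG1, LSS, SC5D and SCAP) and for 7.43% of all. The GC box GGGCGG, left in lower case above, was found for 27 of the 29 genes (93.1%), for 44.6% of all promoters and for 69.5% of the promoters of tested genes. Of the promoters of tested genes, 36.0% held a CCAAT box, 1.06% the sterol element and 9.96% the E-box. Only exact matches to these motifs were counted, so a sterol element with other letters would be missed. A match is a description of the letters in this window, and binding was not measured here.

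The first steps of the pathway supply acetoacetyl-CoA and turn it into mevalonate and the isoprenoid units. HMGCS1, the cytosolic HMG-CoA synthase, was at 148, 119, 154 and 157 CPM in the 4 replicates of DU145KO+α2, at 124, 105, 116 and 113 CPM in DU145KO+vector and at 113, 109, 127 and 105 CPM in DU145KO. Replicate 2 of DU145KO+α2 was the one sample of that line inside the range of the others. HMGCS1 had a log2 fold change of 0.34 (SE 0.09, adjusted p = 0.0224 in edgeR) against DU145KO+vector and of 0.35 (SE 0.09, adjusted p = 0.0237) against DU145KO, and the difference between DU145KO+vector and DU145KO was 0.01 (SE 0.09). In 4 of 4 pairs of the same replicate number HMGCS1 was higher in DU145KO+α2, against either line. The first of these calls was kept in 6 of 12 fits that left out 1 sample, and lost without replicate 1, 3 or 4 of DU145KO+α2 or replicate 2, 3 or 4 of DU145KO+vector, with a highest adjusted p of 0.0770. The second was lost without replicate 2 or 4 of DU145KO or replicate 1, 3 or 4 of DU145KO+α2, with a highest adjusted p of 0.0831.

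AACS, acetoacetyl-CoA synthetase, which feeds ketone bodies into lipid synthesis, was the one gene of the sterol list that was down regulated. It was at 49.0, 54.7, 44.4 and 43.5 CPM in DU145KO+α2, at 59.8, 60.0, 56.5 and 60.5 CPM in DU145KO+vector and at 52.8, 50.4, 54.0 and 56.0 CPM in DU145KO. The samples of DU145KO+α2 all lay below those of DU145KO+vector, and DU145KO+vector lay above DU145KO in every sample. Against DU145KO+vector the log2 fold change was -0.30 (SE 0.08, adjusted p = 0.0167 in edgeR), and against DU145KO it was -0.15 (SE 0.08, adjusted p = 0.273). The first call was lost without replicate 3 or replicate 4 of DU145KO+α2, with a highest adjusted p of 0.0717. ACAT2, the cytosolic thiolase at the entry of the pathway, had log2 fold changes of 0.04 (SE 0.11) and 0.22 (SE 0.11) against the same 2 lines, and only the block called the latter (adjusted p = 0.0167). TCP1 and SOD2 cover 17.2% and 5.04% of the exon bases of ACAT2 on the opposite strand, and the strand setting of the counting is not given in the sources used here.

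MVK, mevalonate kinase, was at 12.9, 12.9, 15.5 and 18.5 CPM in DU145KO+α2, at 10.3, 11.9, 10.9 and 13.2 CPM in DU145KO+vector and at 11.1, 11.7, 10.5 and 12.2 CPM in DU145KO. All 4 samples of DU145KO+α2 were above those of DU145KO, and 1 sample of DU145KO+vector reached into their range. Its log2 fold changes were 0.37 (SE 0.13, adjusted p = 0.0786 in edgeR) against DU145KO+vector and 0.39 (SE 0.13, adjusted p = 0.0772) against DU145KO. With the block the adjusted p was 0.00851 and 0.00677, and DESeq2 called the second (adjusted p = 0.0445). The next enzymes are PMVK, which phosphorylates phosphomevalonate, and MVD, which decarboxylates mevalonate diphosphate. Their log2 fold changes were -0.09 (SE 0.08) and -0.03 (SE 0.08) against DU145KO+vector and 0.07 (SE 0.08) and 0.11 (SE 0.08) against DU145KO. IDI1, which isomerizes isopentenyl diphosphate, ranged from 67.2 to 112 CPM in DU145KO+α2 and from 65.9 to 87.7 CPM in DU145KO+vector, with a log2 fold change of 0.23 (SE 0.14, adjusted p = 0.326) and no call with the block.

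FDPS makes farnesyl diphosphate, the last unit that sterols share with the other isoprenoids. It was at 153, 143, 146 and 173 CPM in DU145KO+α2, at 152, 119, 134 and 145 CPM in DU145KO+vector and at 134, 111, 128 and 135 CPM in DU145KO. Each sample of DU145KO+α2 exceeded all samples of DU145KO, while the range of DU145KO+vector overlapped with it. Its log2 fold changes of 0.16 (SE 0.09, adjusted p = 0.287 in edgeR) and 0.28 (SE 0.09, adjusted p = 0.0726) were called with the block, at an adjusted p of 0.0230 and 0.000537, and the second also by DESeq2 (adjusted p = 0.0387). RUSC1-AS1 covers 18.6% of the exon bases of FDPS on the opposite strand, and IDI2-AS1 15.0% of those of IDI1. The annotation names 8 pseudogenes after FDPS and 3 after IDI1. The counts of FDPS and IDI1 are therefore less certain than those of members without overlaps or pseudogenes, and the effect on the counts was not tested.

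FDFT1, squalene synthase, commits farnesyl diphosphate to sterols and had the largest log2 fold change of the 33 genes. It was at 139, 129, 144 and 160 CPM in DU145KO+α2, at 110, 107, 102 and 94.4 CPM in DU145KO and at 86.8, 73.1, 60.1 and 74.7 CPM in DU145KO+vector. The 3 lines did not overlap. FDFT1 had a log2 fold change of 0.95 (SE 0.10, adjusted p = 3.04e-05 in edgeR) in DU145KO+α2 compared to DU145KO+vector, of 0.46 (SE 0.10, adjusted p = 0.00729) compared to DU145KO and of -0.49 (SE 0.10, adjusted p = 0.0148) in DU145KO+vector compared to DU145KO. The first 2 calls were kept under all 8 alternative fits and all 12 left-out samples (the rule of a fold change above 2, which no member passed, is not among the 8). The call between the lines without α2 was lost without replicate 1 or 2 of DU145KO or replicate 3 of DU145KO+vector, with a highest adjusted p of 0.0559.

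Most genes next to FDFT1 had log2 fold changes of the same sign as FDFT1 in each comparison, with no test of the region. FDFT1 lies at chr8:11795573-11839395 of GRCh38, and 21 other tested genes start within 5 Mb of its start. In DU145KO+α2 compared to DU145KO+vector 20 of these 21 had a positive log2 fold change, with a median of 0.44, and the nearest of them on either side, NEIL2 and CTSB, were at 0.84 and 0.72. Compared to DU145KO the median of the 21 genes was 0.18 with 17 positive, and in DU145KO+vector compared to DU145KO it was -0.29 with 17 negative. Above these medians FDFT1 itself differed by a further 0.52, 0.28 and -0.20. The shift of the region moved with the result for FDFT1, and its part in it was not tested. Around SC5D, by contrast, the median of 78 neighbours was 0.00 and -0.02 against DU145KO+vector and in DU145KO+vector compared to DU145KO, and in the first comparison the neighbours' median ranged from -0.08 (MVK) to 0.05 (SREBF1) over the 32 members other than FDFT1. Against DU145KO it ranged from -0.24 (STARD4) to 0.17 (HMGCS1), and in DU145KO+vector compared to DU145KO from -0.17 (STARD4) to 0.10 (HMGCS1). Of the 22 neighbours of HMGCS1, 16 had a positive log2 fold change against DU145KO, where HMGCS1 itself was called at 0.35. Of the 27 neighbours of STARD4, 24 were negative against DU145KO and 26 in DU145KO+vector compared to DU145KO. The part of these shifts in the members' values was not tested. SQLE, on the other arm of the same chromosome, had 28 neighbours with a median of 0.05.

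**Figure D2:**
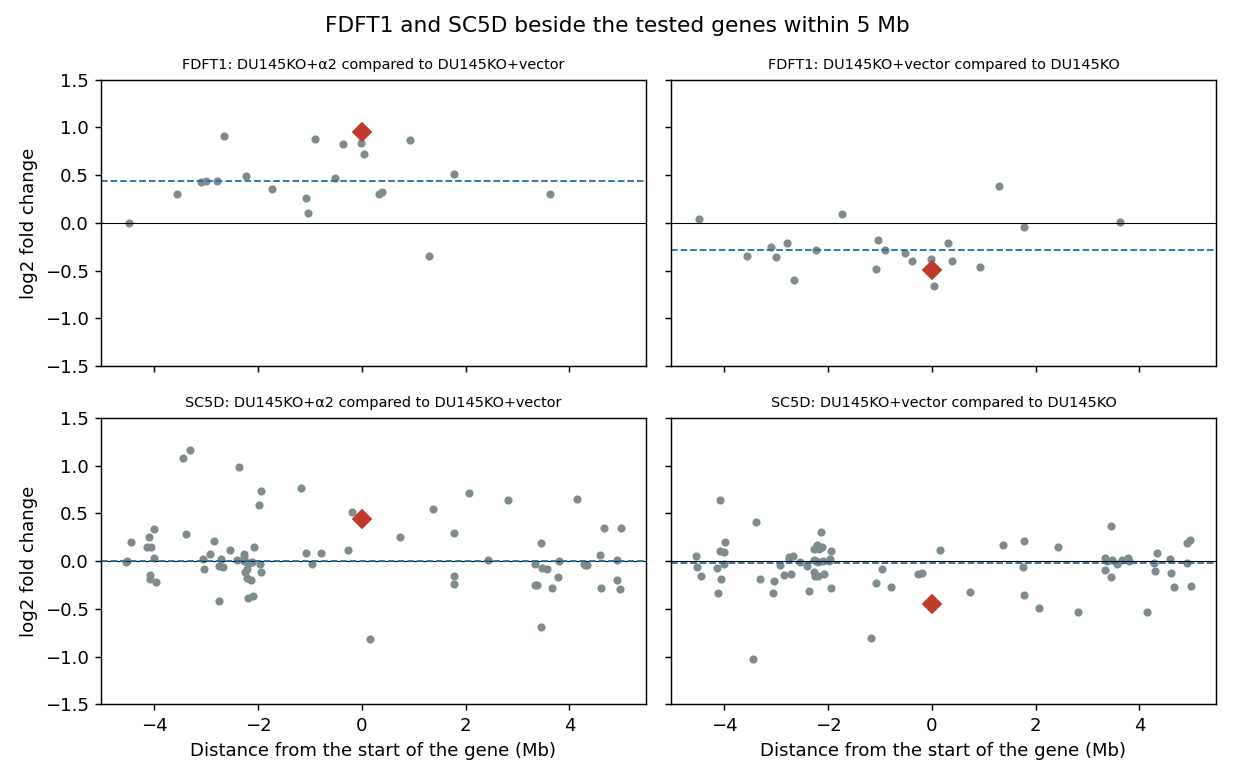
Log2 fold change (vertical axis) of FDFT1 and SC5D (red diamonds) and of the tested genes that start within 5 Mb (grey points), by distance in Mb, in 2 comparisons, with the median of the neighbours as a dashed line. The neighbours of FDFT1 centre on 0.44 at the left and on -0.29 at the right, and those of SC5D on 0.00 and -0.02.

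SQLE, squalene epoxidase, was at 37.8, 37.7, 49.0 and 60.5 CPM in DU145KO+α2, at 29.9, 32.0, 29.6 and 43.7 CPM in DU145KO+vector and at 30.7, 42.1, 39.8 and 40.1 CPM in DU145KO. The lines overlapped, and replicate 4 was the highest sample of both transfected lines. The log2 fold change of 0.45 (SE 0.17) against DU145KO+vector had an adjusted p of 0.103 in edgeR and of 0.00641 with the block. DESeq2 also called it (adjusted p = 0.0462). LSS, which closes the ring of lanosterol, was at 47.2 to 56.7 CPM in DU145KO+α2 and at 50.7 to 56.1 CPM in DU145KO+vector, a log2 fold change of 0.03 (SE 0.08).

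Of the enzymes between lanosterol and cholesterol, TM7SF2 and SC5D were called. TM7SF2, a sterol reductase of the endoplasmic reticulum, was at 81.9, 88.8, 76.1 and 90.3 CPM in DU145KO+α2, at 70.8, 65.9, 55.0 and 59.0 CPM in DU145KO+vector and at 82.4, 68.7, 57.8 and 67.6 CPM in DU145KO. Its samples in DU145KO+α2 were all above DU145KO+vector, and replicate 1 of DU145KO lay within their range. The log2 fold change was 0.43 (SE 0.10, adjusted p = 0.0132 in edgeR) against DU145KO+vector and 0.29 (SE 0.10, adjusted p = 0.112, with the block 0.00228) against DU145KO. The first call was lost without replicate 3 of DU145KO+vector (adjusted p = 0.0525).

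SC5D, the desaturase that turns lathosterol into the substrate of DHCR7, was at 74.7, 61.5, 78.0 and 73.7 CPM in DU145KO+α2, at 70.3, 75.8, 75.3 and 67.4 CPM in DU145KO and at 54.3, 50.1, 50.5 and 57.0 CPM in DU145KO+vector. DU145KO+vector was the low line, with all of its samples below those of both others. Against DU145KO+vector, SC5D in DU145KO+α2 had a log2 fold change of 0.44 (SE 0.08, adjusted p = 0.00206 in edgeR), and DU145KO+vector differed from DU145KO by -0.45 (SE 0.08, adjusted p = 0.00787). DU145KO+α2 and DU145KO differed by -0.01 (SE 0.08, adjusted p = 0.984). Both calls of SC5D were kept under all 8 alternative fits and all 12 left-out samples.

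HSD17B7, the ketosteroid reductase of the demethylation complex, was called only against DU145KO. It was among the least abundant members, at 9.94, 9.99, 15.4 and 11.3 CPM in DU145KO+α2, at 11.0, 9.41, 10.2 and 10.3 CPM in DU145KO+vector and at 8.34, 7.94, 8.91 and 8.55 CPM in DU145KO. Both transfected lines lay above DU145KO in every sample, and replicate 3 of DU145KO+α2 stood above all others. Its log2 fold change was 0.47 (SE 0.14, adjusted p = 0.0466 in edgeR) compared to DU145KO and 0.19 (SE 0.14) compared to DU145KO+vector. The call was kept under 4 of 8 alternative fits and in 3 of 12 left-out fits, and the highest adjusted p among them was 0.137. The annotation names 2 pseudogenes after HSD17B7 and 3 after CYP51A1.

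CYP51A1, lanosterol demethylase, was at 90.5, 91.8, 101 and 107 CPM in DU145KO+α2 and at 84.7, 80.4, 77.1 and 90.4 CPM in DU145KO+vector. These samples did not overlap, with 90.5 CPM as the lowest of the first and 90.4 CPM as the highest of the second. Its log2 fold change of 0.23 (SE 0.08) had an adjusted p of 0.0704 in edgeR and of 0.0106 with the block. DESeq2 also called it (adjusted p = 0.0369). DU145KO, at 83.2 to 97.7 CPM, overlapped with DU145KO+α2. The log2 fold change of CYP51A1 against DU145KO was 0.12 (SE 0.08, adjusted p = 0.436 in edgeR, with the block 0.211). MSMO1, the methylsterol oxidase, was at 42.5, 31.9, 42.8 and 46.4 CPM in DU145KO+α2 and at 37.1, 28.4, 24.0 and 33.6 CPM in DU145KO+vector. Replicate 2 of DU145KO+α2 lay within the range of DU145KO+vector. The log2 fold change of MSMO1 of 0.41 (SE 0.13) had an adjusted p of 0.0501 in edgeR and of 0.0116 with the block. DESeq2 also called MSMO1 (adjusted p = 0.0269), as did edgeR with DESeq2's size factors (0.0475) and with no filter on low counts (0.0393). DHCR7, which makes the last double bond change before cholesterol, had a log2 fold change of 0.18 (SE 0.09, adjusted p = 0.211 in edgeR). It was called only with the block (adjusted p = 0.0457). NSDHL and EBP, which act between these steps, had log2 fold changes of 0.13 (SE 0.10) and 0.10 (SE 0.11) and were not called in any of the 3 comparisons.

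**Figure D3:**
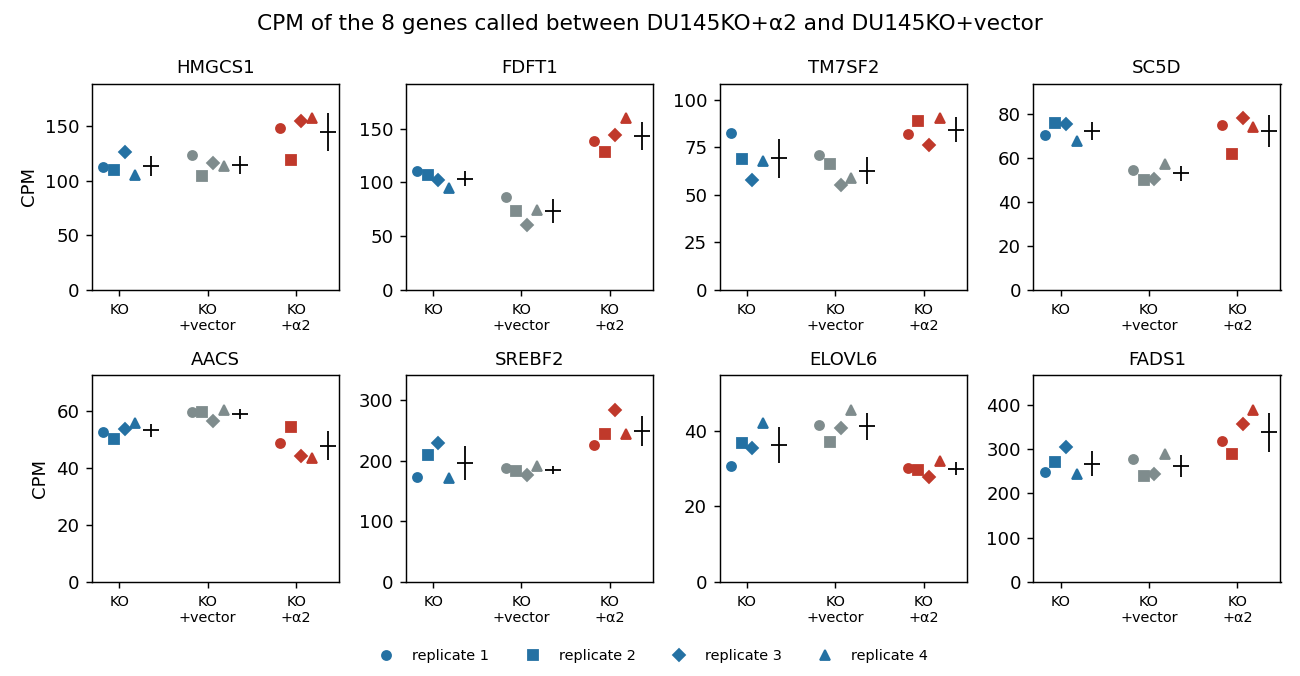
CPM (vertical axis, from 0) of the 8 genes called between DU145KO+α2 and DU145KO+vector in each sample of the 3 lines, with a marker for each replicate number, and with the mean (dash) and SD (bar) of 4 samples in black. FDFT1 separates all 3 lines, SC5D is lowest in DU145KO+vector at 50.1 to 57.0 CPM, and AACS and ELOVL6 are lowest in DU145KO+α2.

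Among the genes that control the pathway, SREBF2 alone was called. SREBF2, the gene of SREBP-2, was at 226, 243, 284 and 243 CPM in DU145KO+α2, at 188, 183, 176 and 191 CPM in DU145KO+vector and at 173, 209, 229 and 172 CPM in DU145KO. DU145KO+α2 lay above DU145KO+vector in all samples, and replicate 3 of DU145KO (229 CPM) reached above the lowest sample of DU145KO+α2. SREBF2 showed a log2 fold change of 0.43 (SE 0.10, adjusted p = 0.00719 in edgeR) against DU145KO+vector, kept under all 8 alternative fits and all 12 left-out samples, and of 0.35 (SE 0.10, adjusted p = 0.0333) against DU145KO. The latter was lost when the fit held only those lines and without replicate 1 or 4 of DU145KO or replicate 2, 3 or 4 of DU145KO+α2, with a highest adjusted p of 0.0922. SREBF1, the gene of SREBP-1, was at 63.2 to 76.9 CPM in DU145KO+α2, at 52.3 to 68.3 CPM in DU145KO+vector and at 44.7 to 76.2 CPM in DU145KO, and its log2 fold change of 0.15 (SE 0.14) against DU145KO+vector was not called. RAI1 covers 6.75% of the exon bases of SREBF1 on the opposite strand.

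INSIG1, which retains the SCAP complex and is itself a target of SREBPs, varied widely among replicates. It was at 23.7, 22.5, 34.7 and 39.0 CPM in DU145KO+α2, at 20.7, 21.8, 18.9 and 30.3 CPM in DU145KO+vector and at 15.0, 25.1, 33.3 and 21.9 CPM in DU145KO. The 3 lines overlapped, from a low of 15.0 CPM in replicate 1 of DU145KO to a high of 39.0 CPM in replicate 4 of DU145KO+α2. Against DU145KO+vector its log2 fold change of 0.39 had an SE of 0.25, the largest SE of the members in this comparison, and an adjusted p of 0.388. SCAP had log2 fold changes of -0.01, -0.04 and -0.03 in the 3 comparisons, each with an SE of 0.08. STARD4, a carrier of cholesterol within the cell, was at 16.8, 14.4, 18.5 and 22.9 CPM in DU145KO+α2 and at 15.2, 12.1, 13.1 and 17.3 CPM in DU145KO+vector, and its 0.33 (SE 0.16, adjusted p = 0.208) did not pass the test. In DU145KO it was at 15.7 to 22.9 CPM, and DU145KO+α2 differed from DU145KO by 0.004 (SE 0.16). NPC1, which exports cholesterol from lysosomes, differed by -0.03 (SE 0.12) against DU145KO+vector.

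Of the fatty acid genes, the enzymes that build palmitate did not pass the test in any comparison. ACLY, which makes cytosolic acetyl-CoA from citrate, was at 333 to 367 CPM in DU145KO+α2 and at 312 to 346 CPM in DU145KO+vector, a log2 fold change of 0.06 (SE 0.07). ACACA, which makes malonyl-CoA, was at 0.00 (SE 0.09), FASN, the fatty acid synthase, at 0.02 (SE 0.10) and ACSS2, which makes acetyl-CoA from acetate, at 0.00 (SE 0.10) in the same comparison. Their changes against DU145KO were between -0.09 and 0.05, with an SE of 0.07 to 0.10.

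The enzymes that lengthen and desaturate fatty acids differed in direction. ELOVL6, which elongates palmitate, was at 30.3, 29.7, 27.9 and 32.0 CPM in DU145KO+α2, at 41.5, 37.1, 40.7 and 45.6 CPM in DU145KO+vector and at 30.7, 36.9, 35.6 and 42.1 CPM in DU145KO. DU145KO+α2 lay below DU145KO+vector in all samples and overlapped with DU145KO in replicate 1 of the latter. ELOVL6 showed a log2 fold change of -0.46 (SE 0.10, adjusted p = 0.00466 in edgeR), a call kept under all 8 alternative fits and all 12 left-out samples, and against DU145KO it was -0.28 (SE 0.10, adjusted p = 0.0906, with the block 0.00879).

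FADS1 and FADS2, neighbouring genes of desaturases for polyunsaturated fatty acids, were higher in DU145KO+α2. FADS1 was at 318, 289, 356 and 389 CPM in DU145KO+α2, at 279, 239, 243 and 288 CPM in DU145KO+vector and at 248, 271, 306 and 243 CPM in DU145KO. The highest sample of DU145KO+vector (288 CPM) came close to replicate 2 of DU145KO+α2 (289 CPM), with no overlap. FADS1 had a log2 fold change of 0.37 (SE 0.10, adjusted p = 0.0281 in edgeR) against DU145KO+vector. That call was lost without replicate 3 or 4 of DU145KO+α2 or replicate 2 or 3 of DU145KO+vector (highest adjusted p = 0.0987). Against DU145KO the log2 fold change of FADS1 was 0.34 (SE 0.10, adjusted p = 0.0526, with the block 0.0246). DESeq2 also called this difference (adjusted p = 0.0168), as did edgeR with DESeq2's size factors (0.0442) and with no filter on low counts (0.0324). FADS2 was at 246, 240, 243 and 303 CPM in DU145KO+α2, at 235, 176, 187 and 230 CPM in DU145KO+vector and at 225, 197, 206 and 230 CPM in DU145KO. All samples of DU145KO+α2 lay above both other lines, and the log2 fold changes of 0.32 (SE 0.10, adjusted p = 0.0584) and 0.27 (SE 0.10, adjusted p = 0.140) were called with the block, at an adjusted p of 0.000257 and 0.00213. The first of these was also called by DESeq2 (adjusted p = 0.0297) and by edgeR with no filter on low counts (adjusted p = 0.0440). The exons of the pair share 490 bases on opposite strands, 4.79% of FADS1 and 4.64% of FADS2.

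SCD, which desaturates palmitate and stearate, had the largest log2 fold change after FDFT1 and did not pass the test. It was at 746, 706, 1004 and 936 CPM in DU145KO+α2, at 619, 593, 500.0 and 617 CPM in DU145KO+vector and at 547, 801, 1031 and 466 CPM in DU145KO. DU145KO+α2 lay above DU145KO+vector in every sample, while DU145KO spanned the whole range of both, with a CV of 36.1% against 9.62% in DU145KO+vector and 17.0% in DU145KO+α2. The log2 fold change against DU145KO+vector was 0.54 (SE 0.21, adjusted p = 0.135 in edgeR, with the block 0.197). It was called by DESeq2 (adjusted p = 0.0367) and by edgeR in a fit of these 2 lines alone, without DU145KO (adjusted p = 0.00743). The annotation names 1 pseudogene after SCD and 1 after AACS.

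Set by role, the medians of the log2 fold changes in DU145KO+α2 compared to DU145KO+vector were 0.19 for the 19 sterol enzymes (4 higher, 1 lower), 0.24 for the 6 control and transport genes (1 higher) and 0.04 for the 8 fatty acid genes (1 higher, 1 lower). Compared to DU145KO the medians were 0.22 (3 higher), 0.12 (1 higher) and 0.05 (none called, with 2 higher and 1 lower at an unadjusted p below 0.05 in edgeR). In DU145KO+vector compared to DU145KO they were 0.01 (2 lower), -0.07 and -0.04, with no call in the latter lists, where no gene had an unadjusted p below 0.05. Of all genes tested, the shares called higher and lower were 5.96% and 5.95%, 3.09% and 5.08%, and 0.496% and 1.84% in these comparisons. With no adjustment the shares were 9.30% and 12.1% compared to DU145KO, and 6.13% and 8.90% in DU145KO+vector compared to DU145KO. The roles were not tested against these shares. The 3 comparisons share samples, so the values by role are not separate evidence.

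The members varied among replicates as well as among lines. Relative to the mean of its own line, replicate 3 of DU145KO had 23 of the 33 genes above and replicate 3 of DU145KO+vector had 27 below. Replicate 4 of DU145KO+α2 had 23 above, with a median deviation of 0.11 on the log2 scale, and replicate 1 of DU145KO+vector had 26 above. In replicate 3 of DU145KO the 6 control and transport genes deviated by a median of 0.31, and SCD by 0.61 on the log2 scale. The replicate number took a median of 57.9% of the within-line variance of a member and 62.1% of that of a tested gene. These shares are not corrected for the part that unrelated numbers would take. Between the mean deviations of the numbers, the widest ranges of members were 0.60 for INSIG1, 0.54 for SQLE and 0.42 for SREBF1. INSIG1 did not move alike in the lines, with deviations from -0.25 to 0.54 in replicate 3 and a share of 48.1%. The largest shares of members were 92.3% for ACACA, 92.1% for ACAT2 and 90.9% for NPC1.

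**Figure D4:**
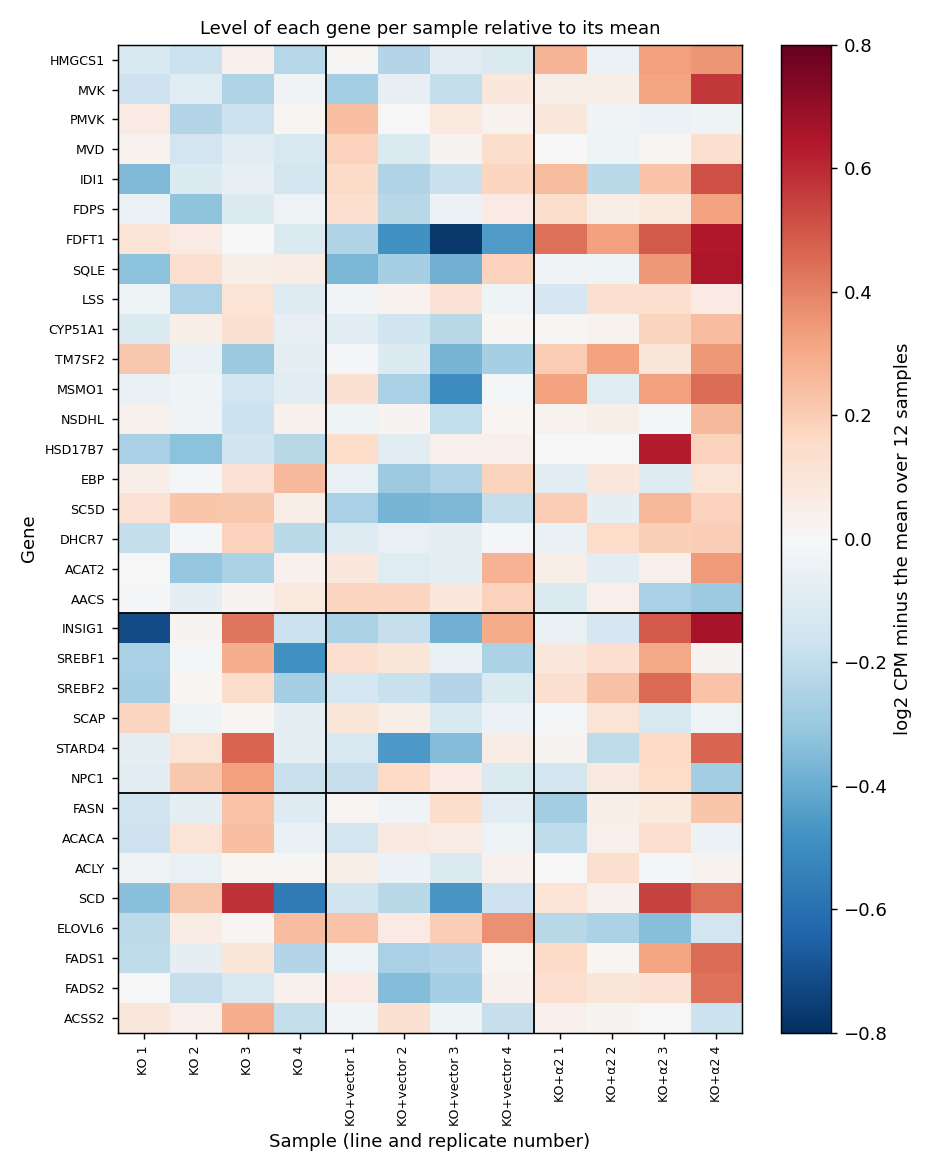
Level of the 33 genes (rows, grouped by role) in the 12 samples (columns, grouped by line), as log2 CPM minus the mean of the gene over 12 samples, from -0.8 (blue) to 0.8 (red). FDFT1 is low in DU145KO+vector and high in DU145KO+α2 in every replicate, while SCD and INSIG1 change among the replicates of DU145KO.

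Levels of different genes were set side by side per length, as the RPKM that the authors deposited. SCD was the highest member in each line, at 129 ± 45.5 RPKM in DU145KO, 106 ± 10.6 RPKM in DU145KO+vector and 155 ± 25.2 RPKM in DU145KO+α2 (mean ± SD, n = 4). NPC1, FDPS, ACLY, FADS1 and FADS2 filled ranks 2 to 6 in every line. Among these, FDPS (76.3 ± 6.90), NPC1 (79.8 ± 12.8) and ACLY (75.3 ± 1.77 RPKM) in DU145KO lay within the spread of each other. STARD4 was the lowest in each line, at 3.21 ± 0.571, 2.58 ± 0.414 and 3.26 ± 0.623 RPKM, and HSD17B7, MVK, LSS and ACACA were the next above it. FDFT1 was at rank 13 in DU145KO, 20 in DU145KO+vector and 11 in DU145KO+α2.

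**Figure D5:**
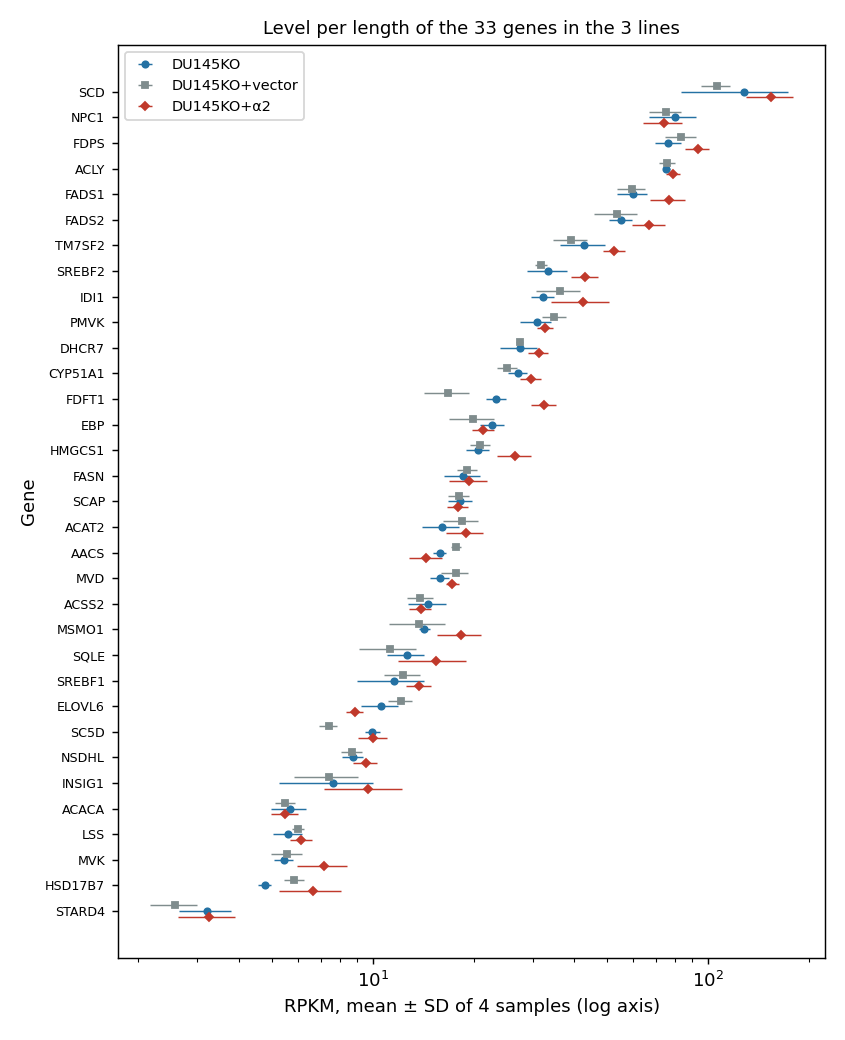
Deposited RPKM (horizontal log axis, mean ± SD of 4 samples) of the 33 genes in the 3 lines, in the order of DU145KO. SCD is highest and STARD4 lowest in each line, and the 3 lines of FDFT1 lie apart at 16.8 RPKM (DU145KO+vector), 23.4 RPKM (DU145KO) and 32.5 RPKM (DU145KO+α2).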

How the data were processed

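Spheroid RNA of 12 samples, 4 each of DU145KO, DU145KO+vector and DU145KO+α2, was sequenced from stranded mRNA libraries as single-end reads in lanes that are not assigned to samples here. Per the labels and methods, the authors aligned reads to hg38 with TopHat 2.1.0 after bcl2fastq 1.8.4, assigned uniquely aligned reads to known genes with Subread 1.5.0, and deposited raw counts per gene. The authors also deposited RPKM values made from these counts. The strand setting of the counting is not given in the sources used here.

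Line and replicate number were taken from the sample labels. Tests on the counts used edgeR 4.0.16 under R 4.3.3 (TMM, filterByExpr with a minimum count of 10, robust quasi-likelihood test, all 12 samples in 1 model with the line as factor). Tests were two-sided, p-values were adjusted by Benjamini-Hochberg over 14732 genes, and a gene was called at an adjusted p below 0.05. The SE was derived from the log2 fold change and its F statistic. CPM were TMM normalized, and RPKM were used for levels between genes only. Of the 26485 genes, 5446 had no count. All pairs of replicates within a line differed beyond sampling noise (chi-square per degree of freedom 7.19 to 25.1).

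Deviations from the line means correlated between samples of the same number in all 12 pairs (0.13 to 0.55, mean 0.38). Between different numbers the correlation was -0.29 to 0.15 (mean -0.13), so the ranges overlapped slightly. Taking deviations from the mean of each line ties these values to those of the same numbers. Their negative mean is therefore no separate support for the pairing. The numbers, which come from the labels, were taken to pair the samples. Alternatives were the replicate number as a block, DESeq2 1.42.0 size factors or Wald test, library size alone, voom with limma 3.58.1, other filters on low counts, a fold change above 2, a fit of the compared lines alone, and fits without each single sample. The edgeR script was tested on simulated counts of 14607 genes for DU145KO+α2 compared to DU145KO+vector. It recovered 67% of genes changed by 0.5 and 93% of those changed by 1 on the log2 scale, with 3 false calls among 14407 unchanged genes. With the block it recovered 69% and 94% with 11 false calls, and DESeq2 recovered 80% and 99% with 17. The simulated counts held no effect of the replicate number.

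The members, the other lists and the motifs were chosen with earlier results of these data known, so no list was tested as a set. Genes named are ITGA2, every member and, of each other list, up to 3 called genes a direction with the largest change in DU145KO+α2 or DU145KO compared to DU145KO+vector, and NEIL2 and CTSB by position, added after their values were seen. Some genes within this rule are not reported here. Positions and exons come from GENCODE on GRCh38.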

Additional observations from a re-analysis of the deposited data

Results flagged for a closer look

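In 2 of 102 groups of 4 samples (the 33 genes and ITGA2 in 3 lines), 1 sample stood apart from the other three by more than Dixon's 95% critical value of 0.829, where chance gives about 5.1 such groups. PMVK in DU145KO+α2 had a gap to range ratio of 0.868, with replicate 1 at 45.3 CPM and the others between 41.4 and 41.9 CPM. FADS2 in DU145KO+α2 had a ratio of 0.902, with replicate 4 at 303 CPM and the others between 240 and 246 CPM.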

How the results depend on the processing

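Of the members called in DU145KO+α2 compared to DU145KO+vector (8), DESeq2 gave 13, the replicate block 15 and a fold change above 2 gave 0. Compared to DU145KO (4), DESeq2 gave 7, the block 12, a fit of those lines alone 2 and the fold rule 0, and in DU145KO+vector compared to DU145KO (2) the fold rule gave 0. The cause of these moves was not tested, apart from the stricter fold rule. Of all genes tested, the block called 12.9% higher and 13.7% lower in DU145KO+α2 compared to DU145KO+vector. Its shares were 9.93% and 12.4% compared to DU145KO, and 5.59% and 7.85% in DU145KO+vector compared to DU145KO. In DU145KO+α2 compared to DU145KO+vector the other lists had the following counts. Further cholesterol genes (1) had 0 with at least 10 counts in every sample, fatty acid and glycerolipid genes (5) had 10 with the block and oxidation genes (1) had 2. Compared to DU145KO, further cholesterol genes (2) had 1 with that filter and 1 in the fit of those lines alone, uptake genes (4) had 8 with the block and fatty acid and glycerolipid genes (1) had 9. Oxidation genes (2) had 1 with DESeq2's size factors, with voom and with the block, and 0 without a filter or in the fit of those lines alone. In DU145KO+vector compared to DU145KO, uptake genes (0) had 1 with library size alone, 2 with DESeq2, 1 in the fit of those lines alone and 2 with the block, fatty acid and glycerolipid genes (1) had 5 with the block, and oxidation genes (1) had 0 in the fit of those lines alone and 2 with the block. The block called ITGA2 lower there (-0.23). Beside the changes given here and in the report, it changed no call of a member.

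With 1 sample left out, members called ranged from 5 (without DU145KO+α2 replicate 3) to 10 (without DU145KO+vector replicate 1), from 1 (without DU145KO replicate 4) to 6 (without DU145KO+α2 replicate 2), and from 1 to 2 in the 3 comparisons. Their median log2 fold changes ranged from 0.16 to 0.22, from 0.12 to 0.23 and from -0.06 to 0.01, and those of ITGA2 from 4.0 to 4.19, from 3.77 to 4.0 and from -0.35 to -0.11. In the same order, further cholesterol genes ranged from 0 to 1, 0 to 2 and 0 to 0, uptake genes from 0 to 4, 1 to 4 and 0 to 1, fatty acid and glycerolipid genes from 4 to 6, 1 to 2 and 1 to 1, and oxidation genes from 0 to 1 in each. No called value changed sign. At these depths the simulation missed part of the genes changed by 0.5 on the log2 scale, and most member changes were smaller, so a member not called may still differ.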

Other observations

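Other lipid genes, from 4 lists, were called in both directions between DU145KO+α2 and DU145KO+vector. Of all genes tested, 5.96% were called higher and 5.95% lower in this comparison, and the lists were not tested against these shares. In DU145KO+vector compared to DU145KO the shares were 0.496% and 1.84%. Of 23 further tested genes of fatty acid and glycerolipid synthesis, 2 were called higher and 3 lower in edgeR's quasi-likelihood test. ACSL1 and ACSL4, which activate long-chain fatty acids, had log2 fold changes of 0.54 (SE 0.10, adjusted p = 0.00182) and 0.53 (SE 0.13, adjusted p = 0.0125). ACSL1 was at 26.2 ± 1.88 CPM in DU145KO+α2, at 18.0 ± 1.08 CPM in DU145KO+vector and at 26.4 ± 3.38 CPM in DU145KO (mean ± SD, n = 4), so that, as for SC5D, the low line was DU145KO+vector (-0.55 compared to DU145KO, adjusted p = 0.00699). ELOVL7, another elongase, fell by 0.47 (SE 0.09, adjusted p = 0.00347), AGPAT2, an acyltransferase of phosphatidic acid synthesis, by 0.46 (SE 0.08, adjusted p = 0.00105), and ME1, a source of NADPH, by 0.27 (SE 0.07, adjusted p = 0.0194). ME1 lost its call without replicate 1 or 3 of DU145KO+α2 or replicate 3 or 4 of DU145KO+vector, with a highest adjusted p of 0.0680. Against DU145KO, 0 of the 23 genes were called higher and 1 lower, where 3.09% and 5.08% of all genes were. The gene called lower was ELOVL7 (-0.65, adjusted p = 0.000387 in edgeR). ACSL4 (0.25, adjusted p = 0.271), AGPAT2 (-0.23, adjusted p = 0.0824) and ME1 (-0.18, adjusted p = 0.134) were not called there. Of the 8 alternative fits, only the block called these genes.

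Of 15 tested genes of cholesterol uptake, storage and efflux, 2 were called higher and 2 lower. VLDLR, a lipoprotein receptor, was at 41.0 ± 1.09 CPM in DU145KO+α2 and at 32.0 ± 2.90 CPM in DU145KO+vector (log2 fold change 0.36, SE 0.11, adjusted p = 0.0408), and this call was lost whenever 1 sample of either line was left out (highest adjusted p = 0.127). The lysosomal genes NPC2, which hands cholesterol to NPC1, and LIPA, which hydrolyses cholesteryl esters, changed by -0.51 (SE 0.12, adjusted p = 0.0119) and -0.37 (SE 0.10, adjusted p = 0.0207). NPC2 lost its call without replicate 3 of DU145KO+α2 (adjusted p = 0.0525). LIPA lost its call without replicate 3 or 4 of DU145KO+α2 or replicate 1 or 2 of DU145KO+vector (highest adjusted p = 0.0729). Against DU145KO, 1 of the 15 genes was called higher and 3 lower, where 3.09% and 5.08% of all genes were. VLDLR (0.36, adjusted p = 0.0479 in edgeR) and LIPA (-0.37, adjusted p = 0.0271) were among them, in 3 and 6 of 12 left-out fits. NPC2 (-0.25, adjusted p = 0.253) was not called there. Of 18 tested further genes of cholesterol synthesis and its control, 0 were called higher and 1 lower by edgeR. With no adjustment the counts were also 0 and 1. The gene called lower was FAXDC2, with at most 20 counts in any sample. It was also called lower compared to DU145KO (adjusted p = 0.0130 in edgeR). Of 17 tested genes of fatty acid oxidation, 1 was called, PPARA, a nuclear receptor for fatty acids. It had a log2 fold change of 0.48 (SE 0.12, adjusted p = 0.0185 in edgeR). The call was lost without replicate 2 or 3 of DU145KO+α2 or replicate 3 or 4 of DU145KO+vector (highest adjusted p = 0.0618). Against DU145KO, PPARA was not called (0.18, adjusted p = 0.453). CPT1A, the carnitine transferase of mitochondrial uptake, was lower in DU145KO+vector compared to DU145KO (-0.42, adjusted p = 0.0179 in edgeR). This call was lost in the fit of those lines alone (adjusted p = 0.0528). It was also lost without replicate 1 of DU145KO or replicate 4 of DU145KO+vector (highest adjusted p = 0.0740). DU145KO+α2 was likewise called lower for CPT1A against DU145KO (-0.29, adjusted p = 0.0475 in edgeR). That call was kept under 4 of 8 alternative fits and in 1 of 12 left-out fits (highest adjusted p = 0.152).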
